A study of Homo sapiens with 9 samples.

Results

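The genes described here are 9 that write, copy or remove methyl groups on cytosine: the DNA methyltransferases DNMT1, DNMT3A and DNMT3B, the catalytically inactive family member DNMT3L, the dioxygenases TET1, TET2 and TET3, the DNMT1 partner UHRF1 and the glycosylase TDG. They were chosen by gene symbol, not by their values, and are 9 of the 62710 genes in the count table. Of these 9, 8 passed the filter on low counts, as did 23075 genes in all. DNMT3L did not pass.

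H9 cells, a long-established line of human embryonic stem cells recorded as wild type, were the source of every library. Cells spent 72 h in the pluripotency medium mTeSR1 on a Matrigel-coated silicone (PDMS) plate, then 48 h in N2B27 medium with SB431542 and LDN, the dual SMAD inhibition that turns pluripotent cells towards neuroepithelium. For a further 24 h, with inhibition continued, the plate was bent to a concave shape (3 libraries), bent to a convex shape (3 libraries) or left flat as the control (3 libraries). Every group therefore shares the line, the substrate and the inhibitors, and no undifferentiated or uninhibited cells were analysed here. Poly(A)-selected RNA was sequenced, and each library held between 49420082 and 64763412 counts. Whether replicate libraries are separate cultures is not stated, and p-values measure only how far these particular libraries spread, possibly for technical reasons.

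DNA methylation in mammals is set by de novo enzymes, DNMT3A and DNMT3B, which methylate unmarked CpG sites, and is copied after replication by DNMT1, which UHRF1 brings to hemimethylated DNA. TET enzymes oxidise 5-methylcytosine, and TDG excises the later oxidation products so that repair restores cytosine. Human pluripotent cells are known for abundant DNMT3B and TET1, both of which decline during differentiation while DNMT3A persists in neural cells.

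The stage of these cells was read from marker genes. POU5F1, the core pluripotency factor, was between 206 and 512 CPM (counts scaled to library size, with TMM factors) in the 9 libraries. SOX2, shared by pluripotent and neural cells, was between 470.1 and 822 CPM. PAX6, a marker of committed human neuroepithelium, was between 1.09 and 7.10 CPM, so POU5F1 was still abundant and PAX6 low in every library. Each of these markers, and others, split the libraries by their replicate number without overlap. POU5F1 was 206 to 366 CPM in numbers 1 and 2 and 481.5 to 512 CPM in number 3. SOX2 was 739 to 822 CPM in numbers 1 and 2 and 470.1 to 577.5 CPM in number 3. PAX6 was 1.68 to 7.10 CPM in numbers 1 and 2 and 1.09 to 1.305 CPM in number 3. TDGF1, a Nodal co-receptor, was 1.11 to 4.73 CPM in numbers 1 and 2 and 123 to 192.5 CPM in number 3. SIX3, an anterior neural factor, was 111 to 199.9 CPM in numbers 1 and 2 and 22.4 to 42.2 CPM in number 3. POU5F1 and TDGF1 have near-identical pseudogenes, so their counts are uncertain to that extent.

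Promoter sequence is shown for DNMT1 and UHRF1, the maintenance pair, and for TDG, a gene whose counts differed between libraries by number, as examples of the CpG content at the starts of these genes. The windows run from 250 bases before to 50 bases after a RefSeq transcript start on GRCh38.p14. Capitals mark CpG dinucleotides, the substrate of these enzymes. DNMT1 lies on the minus strand at chr19:10194904-10195203, UHRF1 (of its 3 windows, the one at the start of its principal transcript) on the plus strand at chr19:4910117-4910416, and TDG on the plus strand at chr12:103965622-103965921.
DNMT1: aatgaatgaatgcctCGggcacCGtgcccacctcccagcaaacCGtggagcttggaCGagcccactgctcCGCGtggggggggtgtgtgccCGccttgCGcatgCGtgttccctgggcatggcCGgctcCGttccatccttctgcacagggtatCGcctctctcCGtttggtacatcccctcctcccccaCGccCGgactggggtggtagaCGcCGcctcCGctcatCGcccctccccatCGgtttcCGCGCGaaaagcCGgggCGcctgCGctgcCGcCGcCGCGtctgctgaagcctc
UHRF1: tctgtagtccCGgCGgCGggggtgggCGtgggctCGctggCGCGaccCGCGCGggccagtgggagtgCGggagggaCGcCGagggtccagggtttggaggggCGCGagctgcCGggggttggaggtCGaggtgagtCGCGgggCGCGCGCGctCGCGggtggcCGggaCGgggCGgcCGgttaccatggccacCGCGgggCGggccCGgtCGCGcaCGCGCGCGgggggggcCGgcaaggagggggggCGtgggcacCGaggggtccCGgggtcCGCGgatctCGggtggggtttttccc
TDG: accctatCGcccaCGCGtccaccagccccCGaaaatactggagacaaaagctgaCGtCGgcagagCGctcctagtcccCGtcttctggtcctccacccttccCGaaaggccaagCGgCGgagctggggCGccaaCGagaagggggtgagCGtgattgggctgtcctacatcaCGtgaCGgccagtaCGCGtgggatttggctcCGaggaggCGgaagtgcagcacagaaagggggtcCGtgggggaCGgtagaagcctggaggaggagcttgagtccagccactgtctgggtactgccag
The DNMT1 window holds 30 CpG, the UHRF1 window 46 and the TDG window 22, against a median of 14 over 35116 windows of the same length. Some windows of these genes lie below that median. The 3 TET1 windows hold 10, 6 and 11 CpG, the first TET2 window 13 and the DNMT3B window 3. The DNMT3B window starts 17467 bases from the principal start. Those of TET1 start 319, 39612 and 39818 bases from its principal start, in the same order. The first TET2 window starts 418 bases away, and the second, 90 bases away, holds 35 CpG. Every other window of these genes holds more than 14. E2F factors drive genes of DNA replication, and the letters searched were TTTCCCGC, TTTCGCGC, TTTGCCGC and TTTGGCGC on both strands. A match stood in 3.31% of all windows, among them the DNMT1 window (GCGCGAAA, first base at position -2 from the start). That start lies 182 bases from the principal start of DNMT1. The UHRF1 window shown holds none, while its other windows, which start 223 and 866 bases from the principal start, hold one each. The letters CACGTG, an E-box that reads the same on both strands, stood in 7.26% of windows and occurred once in the TDG window, at -80. They also occurred in the first window of TET2, in the first window of TET3 and in 2 windows of DNMT3A far from its principal start. The octamer ATGCAAAT, bound by POU5F1, stood in 1.77% of windows and in 0 of the 19 windows of these genes. These are matches of letters in short windows and not sites shown to be bound.

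DNMT3B was by far the most abundant of these transcripts per unit length, and the TET genes were the least abundant of those tested. Levels between genes were compared as CPM per kb of principal transcript, averaged over the 9 libraries with the SD. DNMT3B, the main de novo enzyme of pluripotent cells (chromosome 20, 32762385 to 32809356, plus strand, GRCh38), had 229.6 ± 57.6 CPM per kb. Only 1.09% of tested genes with a known length, 239 genes, had a higher mean level per kb. DNMT1, the maintenance enzyme, had 56.2 ± 10.6 CPM per kb and UHRF1, its partner at hemimethylated CpG, 40.3 ± 7.53.

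Demethylation genes and the second de novo enzyme came lower. TDG (chromosome 12, 103965804 to 103988874, plus strand) had 22.2 ± 4.65 CPM per kb. DNMT3A had 16.9 ± 1.71 and TET1, the TET enzyme that characterises embryonic stem cells, 10.4 ± 3.59 CPM per kb. TET3 had 4.04 ± 1.23 and TET2 1.77 ± 0.546 CPM per kb, a level that 58.2% of tested genes exceeded.

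Per kb, the lowest library for DNMT3B, at 125.7 CPM per kb, stood above the highest for DNMT1, at 66.6. The other neighbours among the 8 tested genes overlapped over the libraries, except UHRF1 and TDG, whose ranges of 29.9 to 50.4 and 16.6 to 28.9 CPM per kb came close without meeting. Within single libraries the order was steadier. UHRF1 was 0.629 to 0.910 times DNMT1 in all 9, and TET3 was 1.82 to 3.78 times TET2. TDG was below DNMT3A in 1 library, flat 2, at a ratio of 0.962, and DNMT3A was below TET1 in 1 library, concave 1, at 0.791.

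DNMT3L was close to the counting floor. It received between 2 and 6 counts in each library, 34 over all 9, which is 0.0294 to 0.106 CPM. A count of 0 would allow up to 3 counts, or 0.0438 to 0.0632 CPM depending on the library, so no difference between groups was detectable at this depth and no fold is given.

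**Figure D1:**
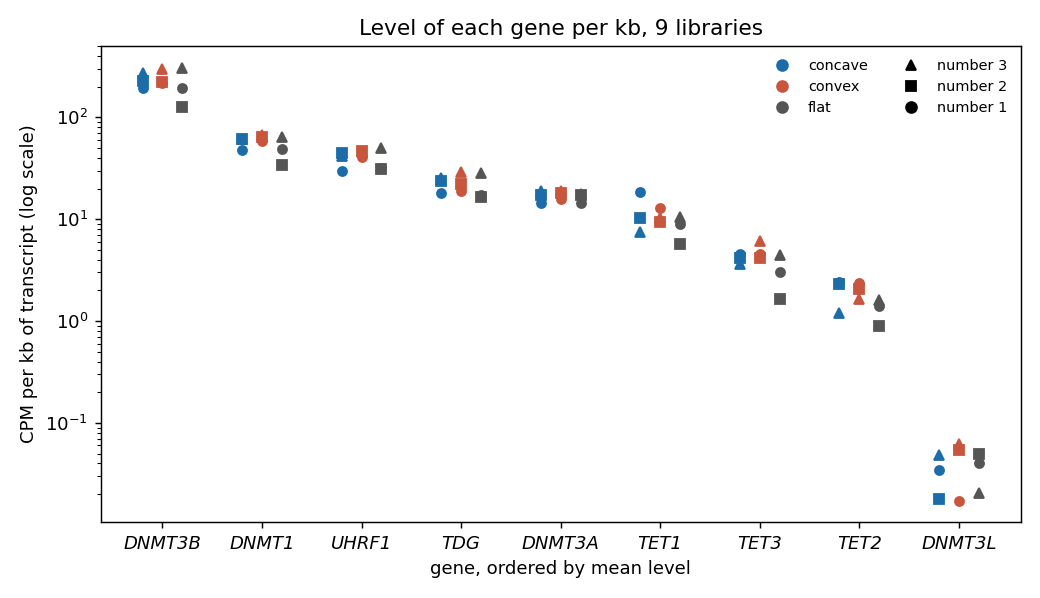
Level of each of the 9 genes in CPM per kb of transcript (log scale), one point per library, coloured by plate shape with the marker giving the library number. DNMT3B averaged 229.6 CPM per kb, and DNMT3L, at 0.0383, was far below the other genes.

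The study's own comparison asks whether bending the plate changed expression. None of the 8 tested genes was called between plate shapes, where a call is an edgeR quasi-likelihood adjusted p under 0.05 over all 23075 tested genes. The share of all tested genes called was 0.0% in each of the 3 comparisons. At an unadjusted p under 0.05, edgeR gave 1047 genes when concave was set against flat, 2135 when convex was, and 65 between the curved shapes. DESeq2 called 0, 1 and 0 genes and limma voom called 0 in each. An edgeR F test among the 3 shapes likewise called 0 genes (0.0%), with 897 at an unadjusted p under 0.05 and 0 called by DESeq2 or limma voom.

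Among the de novo enzymes, DNMT3B was 845, 976.5 and 1192 CPM in concave libraries 1, 2 and 3, 951, 965 and 1302 CPM in convex libraries, and 849, 545 and 1335 CPM in flat libraries. The flat group held both the highest and the lowest library, so the groups overlapped. Mean levels were 1005 ± 175 CPM in concave, 1073 ± 199 CPM in convex and 910 ± 399 CPM in flat cells (SD, n = 3 each). The log2 fold change against flat was 0.14 ± 0.30 for concave and 0.24 ± 0.30 for convex (SE, edgeR adjusted p = 0.938 and 0.756), and without flat 2 it was -0.11 for concave and -0.03 for convex.

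DNMT3A, which methylates many of the same CpG sites (chromosome 2, 25227855 to 25342590, minus strand), varied least of all. It was 99.8, 119 and 130.3 CPM in concave, 108, 125 and 129 CPM in convex, and 99.1, 119 and 121 CPM in flat libraries 1, 2 and 3. In each shape library 1 was lowest and library 3 highest, and the 9 libraries spanned 1.32-fold. Its log2 fold change was 0.04 ± 0.16 for concave and 0.09 ± 0.16 for convex against flat (SE, edgeR adjusted p = 0.973 and 0.83). With a correction for transcript length the value was -0.17 for concave and -0.20 for convex.

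For maintenance, DNMT1 (chromosome 19, 10133345 to 10231286, minus strand) was 257, 328 and 330.2 CPM in concave, 315, 349 and 360.3 CPM in convex, and 263, 185 and 346 CPM in flat libraries. Flat 2 was the lowest of the 9 and the other flat libraries lay within the range of the curved ones. The log2 fold change was 0.21 ± 0.22 for concave and 0.37 ± 0.22 for convex against flat (SE, edgeR adjusted p = 0.87 and 0.54), and without flat 2 it was 0.01 for concave and 0.16 for convex. S1PR2 lies on the same strand within the DNMT1 locus and had 663 to 1326 counts per library, against 8802 to 22514 for DNMT1, so reads in shared exons could have been split between them.

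UHRF1 (chromosome 19, 4903080 to 4962154, plus strand) was 96.4, 145 and 134 CPM in concave, 132, 150.5 and 146 CPM in convex, and 103, 101 and 163 CPM in flat libraries. Its highest library was flat 3 and its lowest concave 1. In the edgeR fit, its log2 fold change was 0.04 ± 0.22 for concave and 0.22 ± 0.22 for convex against flat (SE, edgeR adjusted p = 0.986 and 0.689).

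None of the TET genes was called, and their point estimates against flat depended on the correction for transcript length. With it, concave and convex against flat were 0.27 and 0.07 for TET1, 0.32 and 0.30 for TET2, and 0.23 and 0.39 for TET3. TET1 (chromosome 10, 68560656 to 68694482, plus strand) was 170.0, 94.5 and 69.5 CPM in concave, 120.3, 87.4 and 95.9 CPM in convex, and 83.3, 52.8 and 98.3 CPM in flat libraries 1, 2 and 3. The concave group held the highest library and concave 3 was below 2 of the flat ones. The log2 fold change was 0.51 ± 0.33 for concave and 0.37 ± 0.33 for convex against flat (SE, edgeR adjusted p = 0.841 and 0.65). Leaving out 1 library gave 0.07 (without concave 1) to 0.76 (without concave 3) for concave and 0.15 to 0.56 for convex. COX20P1, a processed pseudogene inside the TET1 locus on the same strand, had 127 to 183 counts per library against 2509 to 11645 for TET1.

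TET2 (chromosome 4, 105145875 to 105279816, plus strand), which lacks the CXXC DNA-binding domain of its relatives, was 23.9, 22.8 and 11.9 CPM in concave, 23.5, 20.6 and 16.1 CPM in convex, and 14.1, 8.93 and 16.1 CPM in flat libraries. Libraries 1 and 2 of both curved shapes stood above every flat library, and concave 3 stood below 2 of them. For TET2 the log2 fold change was 0.58 ± 0.31 for concave and 0.62 ± 0.31 for convex against flat (SE, edgeR adjusted p = 0.841 and 0.513).

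TET3 (chromosome 2, 73986404 to 74108176, plus strand), the form used in the zygote and in neural cells, was 51.7, 47.6 and 41.8 CPM in concave, 51.6, 47.7 and 70.1 CPM in convex, and 34.7, 18.7 and 50.7 CPM in flat libraries. It had the widest span of the 8 tested genes, 3.76-fold between convex 3 and flat 2. Its log2 fold change for convex against flat, 0.70 ± 0.31, was the only one of these genes with an unadjusted p under 0.05 (edgeR adjusted p = 0.513), and without flat 2 it was 0.39. For concave against flat it was 0.44 ± 0.31 (SE, edgeR adjusted p = 0.841), and 0.15 without flat 2.

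TDG, the glycosylase that completes the TET route, was 59.4, 76.9 and 82.3 CPM in concave, 62.0, 72.7 and 94.0 CPM in convex, and 56.2, 53.9 and 91.5 CPM in flat libraries. Library 3 was highest in each shape. Against flat, its log2 fold change was 0.12 ± 0.24 for concave and 0.18 ± 0.24 for convex (SE, edgeR adjusted p = 0.938 and 0.772). Its pseudogene TDGP1 had 16 to 136 counts, against 2561 to 5342 for TDG.

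**Figure D2:**
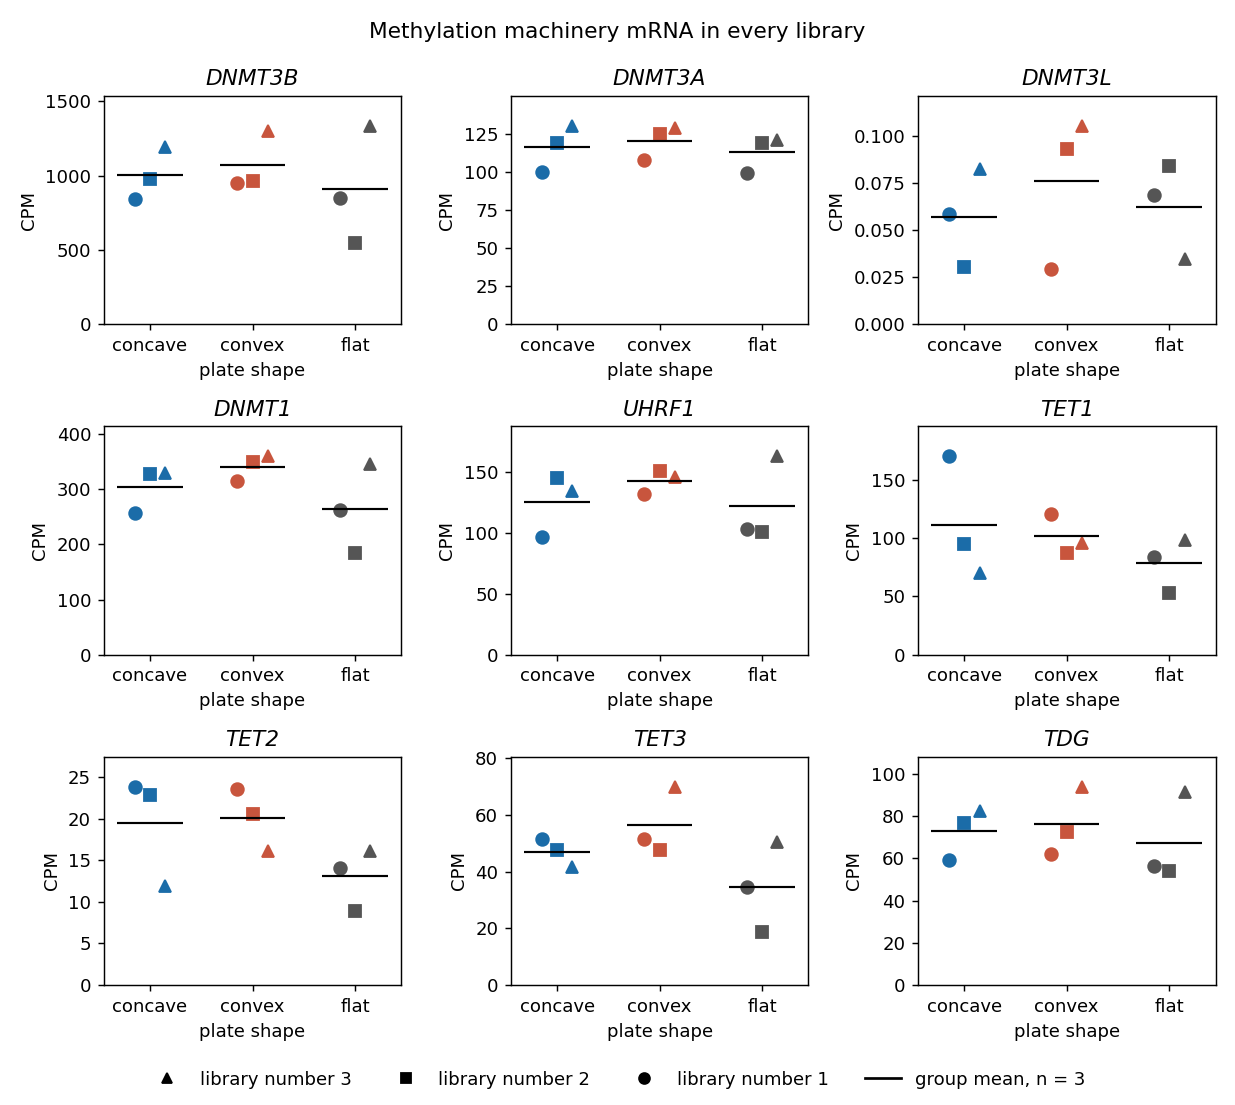
CPM of the 9 genes in every library, by plate shape (concave, convex, flat), with the marker giving the library number and the bar the group mean (n = 3 each). Library 3 was highest in each shape for DNMT1, DNMT3A, DNMT3B and TDG, and flat 2 was the lowest library for DNMT1, DNMT3B, TET1, TET2, TET3 and TDG.

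The point estimate was above 0 for 8 of 8 genes both for concave and for convex against flat (7 of 8 with the correction for transcript length, where DNMT3A was below 0), with medians of 0.17 and 0.30 on the log2 scale. With that correction the medians were 0.09 for concave and 0.17 for convex. The medians over all tested genes were 0.01 and 0.01. The 2 comparisons share the flat libraries, and flat 2 was the lowest library for 6 of the 8 genes. Without flat 2, 5 of 8 genes were above 0 for concave and 7 of 8 for convex, with medians of 0.05 and 0.14. Without flat 3 the medians were 0.48 and 0.57 and no gene was called. For concave against convex, 1 gene (TET1, 0.14 ± 0.33) was above 0 and 7 below, and every edgeR adjusted p was 1.

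**Figure D3:**
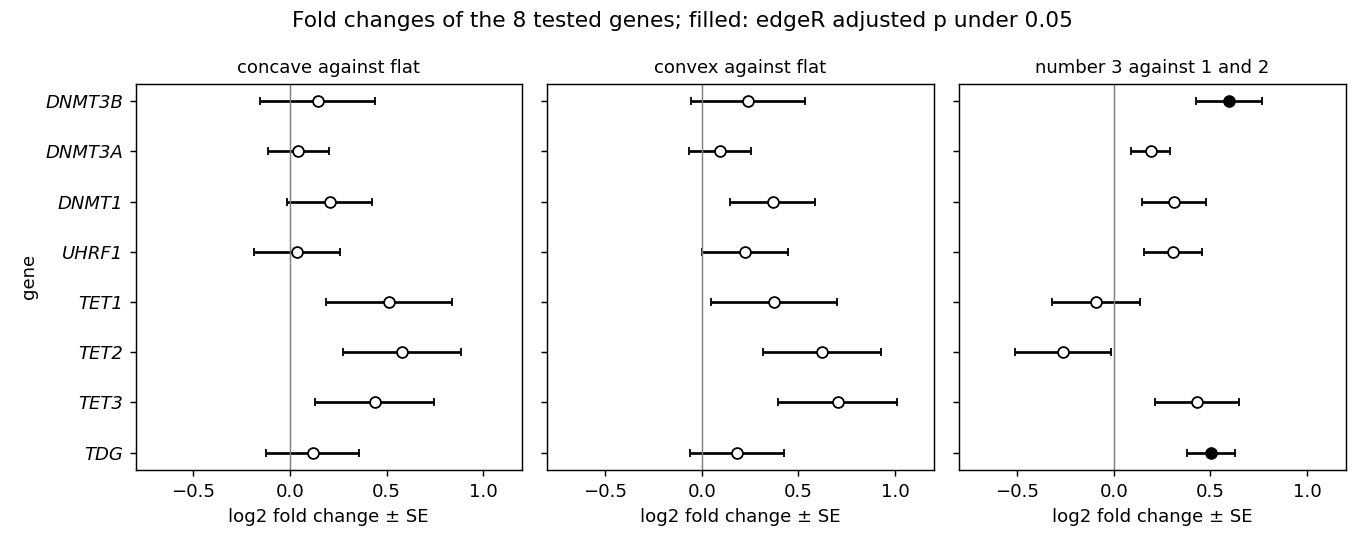
Log2 fold change with SE of the 8 tested genes for concave against flat, convex against flat, and libraries numbered 3 against those numbered 1 and 2, with filled points where the edgeR adjusted p was under 0.05. DNMT3B (0.60) and TDG (0.50) are the filled points, both in the comparison by number.

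Library number was compared next, with plate shape as a term. The number stands in the labels of all 3 groups and is not a condition of the study, and the labels do not say what it marks. DNMT3B and TDG were higher in the libraries numbered 3, and the other 6 tested genes were not called. Over all genes, edgeR called 4137 in this comparison, 17.9% of those tested, with 8.79% higher and 9.14% lower in number 3. A count of 2 called among 8 is therefore to be read against a background in which many genes followed the number. Leaving out 1 library changed that background by over 1.5 times in 4 cases, to 1077 genes without convex 3, 2033 without convex 1, 2035 without concave 1 and 2389 without convex 2. An edgeR F test among the 3 numbers called 2714 genes (11.8%) and 0 of the 8, with adjusted p = 0.103 for DNMT3B and 0.0586 for TDG. DESeq2 called both of these genes in that test. The F test count was 352 without convex 3, 1004 without concave 1, 1043 without convex 1, 1150 without convex 2, 1454 without concave 3, 1627 without flat 1 and 4999 without flat 2.

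DNMT3B averaged 1277 ± 74.9 CPM in libraries numbered 3 (SD, n = 3) and 855 ± 163 CPM in libraries numbered 1 and 2 (SD, n = 6). The lowest number 3 library, 1192 CPM, was above the highest of the others, 976.5 CPM. Its log2 fold change was 0.60 ± 0.17 (SE, edgeR adjusted p = 0.0423). The call rests on most libraries being present: it was lost without concave 1 (adjusted p = 0.127), concave 3 (0.0644), convex 1 (0.121), convex 2 (0.0823), convex 3 (0.138), flat 1 (0.0727) or flat 3 (0.189), and without the plate shape term (0.0504).

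TDG averaged 89.3 ± 6.18 CPM in libraries numbered 3 (SD, n = 3) and 63.5 ± 9.26 CPM in libraries numbered 1 and 2 (SD, n = 6). The 2 sets of libraries did not overlap, with 82.3 CPM as the lowest of number 3 and 76.9 CPM as the highest of the rest. The share of all tested genes without such overlap is not given here. Lack of overlap therefore cannot be called particular to DNMT3B or TDG. Its log2 fold change was 0.50 ± 0.13 (SE, edgeR adjusted p = 0.0253). This call was lost without concave 1 (adjusted p = 0.0903), convex 1 (0.0963), convex 2 (0.0762), convex 3 (0.141), flat 1 (0.0631) or flat 3 (0.107).

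For the remaining genes the sets of libraries overlapped. DNMT1 averaged 345 ± 15.0 CPM in number 3 and 283 ± 60.1 CPM in numbers 1 and 2, a log2 fold change of 0.31 ± 0.17 (SE, edgeR adjusted p = 0.23). UHRF1 averaged 148 ± 14.4 CPM in number 3 and 121 ± 24.1 CPM in numbers 1 and 2, a log2 fold change of 0.31 ± 0.15 (adjusted p = 0.202). DNMT3A averaged 127 ± 5.07 CPM in number 3 and 112 ± 10.9 CPM in numbers 1 and 2 (log2 fold change 0.19 ± 0.10, adjusted p = 0.227). Leaving out 1 library gave 0.13 (without flat 3) to 0.41 (without convex 3) for DNMT1 and 0.09 to 0.43 for UHRF1, without the same libraries.

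TET genes did not move together by number. TET3 averaged 54.2 ± 14.5 CPM in number 3 and 42.0 ± 13.0 CPM in numbers 1 and 2 (log2 fold change 0.43 ± 0.22, edgeR adjusted p = 0.213). TET1 averaged 87.9 ± 16.0 CPM in number 3 and 101 ± 40.0 CPM in numbers 1 and 2, and TET2 14.7 ± 2.43 CPM in number 3 and 19.0 ± 6.11 CPM in numbers 1 and 2. The log2 fold change was -0.09 ± 0.23 for TET1 and -0.26 ± 0.25 for TET2 (edgeR adjusted p = 0.817 and 0.505). Without concave 3 it was 0.22 for TET1 and 0.03 for TET2. Single libraries also decided calls here: TET3 was called higher without concave 3 (0.71, adjusted p = 0.0487), and without flat 3 its value was 0.12. TET2 was called lower without flat 3 (-0.72, adjusted p = 0.027), and also without flat 2 under the length correction (-0.45, adjusted p = 0.02).

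Within a plate shape, number 3 was below the mean of numbers 1 and 2 in concave cells by 0.93 (TET1), 0.97 (TET2) and 0.25 (TET3) on the log2 scale. In flat cells the same difference was 0.53 for TET1, 0.49 for TET2 and 0.92 for TET3. DNMT3B and TDG had positive values in all 3 shapes, 0.39, 0.44 and 0.94 for DNMT3B and 0.27, 0.48 and 0.73 for TDG in concave, convex and flat cells.

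**Figure D4:**
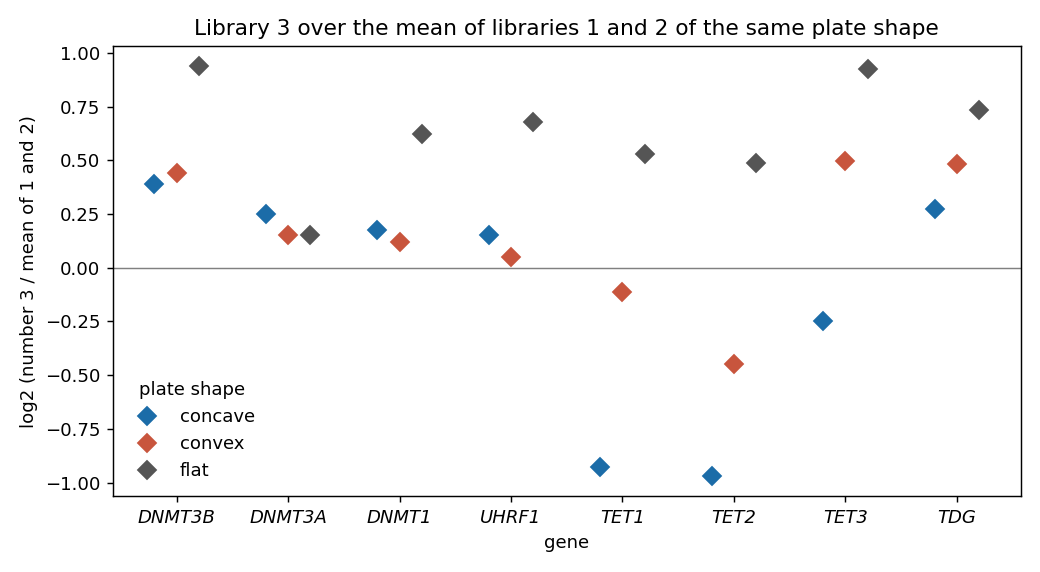
Log2 ratio of library 3 to the mean of libraries 1 and 2 of the same plate shape, for the 8 tested genes in concave, convex and flat cells. All 3 shapes lie above 0 for DNMT3B, DNMT3A, DNMT1, UHRF1 and TDG, while TET1 and TET2 lie below 0 in concave and convex cells and above 0 in flat cells.

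Number 2 was set against number 1 in the same fit. EdgeR called 0 of the 8 genes and 0 of all tested genes (0.0%), with 1970 genes at an unadjusted p under 0.05, while DESeq2 called 154 and limma voom 0. Among the 8 genes, TET1 alone had an unadjusted p under 0.05. It averaged 78.3 ± 22.3 CPM in number 2 and 124.5 ± 43.5 CPM in number 1, a log2 fold change of -0.66 ± 0.26 (edgeR adjusted p = 0.556). DNMT3A, though not called, did not overlap between these numbers, at 99.1 to 108 CPM in number 1 and 119 to 125 CPM in number 2. Its log2 fold change was 0.24 ± 0.12 (edgeR adjusted p = 0.604). The share of all tested genes without such overlap is not given here.

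Markers of stage also differed with the number. Of 21 tested pluripotency genes, 13 were higher and 0 lower in number 3, with a median log2 fold change of 0.76 (0.01 over all genes). POU5F1 averaged 496 ± 15.5 CPM in number 3 and 268.5 ± 62.6 CPM in numbers 1 and 2 (edgeR adjusted p = 0.00237), and TDGF1, a Nodal co-receptor, 159.5 ± 34.9 CPM in number 3 and 2.70 ± 1.46 CPM in numbers 1 and 2 (adjusted p = 5.9e-05). Of 22 tested early neuroectoderm genes, 0 were higher and 15 lower, with a median of -0.74. In that list SIX3, an anterior neural factor, averaged 33.8 ± 10.2 CPM in number 3 and 154 ± 36.2 CPM in numbers 1 and 2 (adjusted p = 0.000881). Leaving out 1 library at a time gave 9 to 13 pluripotency genes higher and 6 to 15 neuroectoderm genes lower. In bulk RNA, fewer cells of a type and less RNA per cell cannot be told apart.

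Markers of other cell types and S phase genes are given beside these values, and their part in the DNMT3B and TDG values was not tested. Their counts are to be read against the 17.9% of all genes called, 8.79% higher and 9.14% lower. Non-neural ectoderm markers summed to 970.5 to 1121 CPM in number 3 and 491.5 to 902 CPM in numbers 1 and 2, with 5 of 9 tested genes higher and TFAP2B at the counting floor. Amnion and trophectoderm markers summed to 92.9 to 161 CPM in number 3 and 67.3 to 75.5 CPM in numbers 1 and 2. Of these markers 10 were listed and 4 tested, with 3 higher and CGA at 0 counts throughout. TFAP2A stands in both this list and the non-neural ectoderm list. Markers of mesoderm and endoderm summed to 9.88 to 14.7 CPM in number 3 and 5.77 to 11.4 CPM in numbers 1 and 2, with 2 of 7 higher and 1 lower, SOX17 at the counting floor, and sums that overlapped. Neural crest markers, with 1 of 7 higher, 1 lower and TFAP2B again at the floor, summed to 67.6 to 73.7 CPM in number 3 and 55.1 to 76.6 CPM in numbers 1 and 2. Neuronal markers, with 1 of 5 higher, 3 lower and NEUROG1 at the floor, summed to 36.6 to 42.6 CPM in number 3 and 44.5 to 75.2 CPM in numbers 1 and 2. Fibroblast, endothelial and blood markers, with 2 of 4 higher and 2 lower, summed to 993 to 1494 CPM in number 3 and 485 to 1099 CPM in numbers 1 and 2, with HBE1 at 0 counts. Of 25 S phase genes, 3 were higher (RRM2, SLBP and CCNE1) and 0 lower, beside 8.79% higher and 9.14% lower over all genes. The median was 0.26, with 22 point estimates above 0 and 3 below, and 10 genes had an edgeR unadjusted p under 0.05. With 1 library left out there were 3 to 6 non-neural ectoderm, 0 to 5 amnion and trophectoderm and 1 to 5 S phase genes higher, and 0 to 3 neuronal genes lower. The filter on low counts was applied anew each time, so the genes tested could change. RRM2, the small subunit of ribonucleotide reductase, averaged 209 ± 0.864 CPM in number 3 and 124 ± 25.1 CPM in numbers 1 and 2 (edgeR adjusted p = 0.00352).

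Partners of the 9 genes were counted by list, against 8.79% of all genes higher and 9.14% lower by number. Of 11 tested genes for recruitment and upkeep of maintenance methylation, 1 was higher and 0 lower, with a median of 0.19 and a share near that over all genes (0 to 1 higher leaving out 1 library). That gene was CDCA7L, a relative of the chromatin-remodelling cofactor CDCA7, at 51.4 ± 5.04 CPM in number 3 and 33.7 ± 6.62 CPM in numbers 1 and 2 (edgeR adjusted p = 0.0227). PCNA, the replication clamp that binds DNMT1, was at 268 ± 14.4 CPM in number 3 and 222 ± 35.5 CPM in numbers 1 and 2 (adjusted p = 0.11). USP7, a deubiquitinase that binds both DNMT1 and UHRF1, was at 278 ± 10.9 CPM in number 3 and 227 ± 23.4 CPM in numbers 1 and 2 (adjusted p = 0.115), and HELLS, the remodeller needed for methylation of repeats, at 169 ± 4.80 CPM in number 3 and 138 ± 22.9 CPM in numbers 1 and 2 (adjusted p = 0.144).

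For targeting of de novo methylation, 1 of 15 genes was higher and 0 lower, with a median of 0.06, again near the share over all genes (0 to 1 higher and 0 to 2 lower leaving out 1 library). This was ZFP57, a guardian of imprints, at 0.486 ± 0.258 CPM in number 3 and 0.141 ± 0.0505 CPM in numbers 1 and 2 (edgeR adjusted p = 0.0217). It averaged under 1 CPM and was named after its values were seen. KDM5B, a histone H3K4 demethylase, was at 233 ± 18.9 CPM in number 3 and 326 ± 62.3 CPM in numbers 1 and 2 (adjusted p = 0.0514).

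TET cofactors and regulators held calls in both directions, 3 higher and 3 lower of 14 tested, with a median of 0.09, beside 17.9% called over all genes. With 1 library left out, 1 to 3 were called in each direction. CXXC4, known to bind TET2 and lower its protein level, averaged 6.71 ± 1.19 CPM in number 3 and 17.7 ± 2.56 CPM in numbers 1 and 2 (log2 fold change -1.40, edgeR adjusted p = 0.001). IDH2, a mitochondrial source of the TET cosubstrate 2-oxoglutarate, averaged 72.8 ± 13.7 CPM in number 3 and 133 ± 28.9 CPM in numbers 1 and 2 (-0.86, adjusted p = 0.00473). PRDM14, a pluripotency factor that in mouse represses de novo methyltransferase genes, averaged 69.7 ± 7.71 CPM in number 3 and 30.8 ± 12.4 CPM in numbers 1 and 2 (1.30, adjusted p = 0.0089). GADD45B, linked to active demethylation, averaged 2.52 ± 0.687 CPM in number 3 and 1.02 ± 0.355 CPM in numbers 1 and 2 (1.36, adjusted p = 0.0139). The remaining calls, named after their values were seen, were IDH3A and D2HGDH. IDH3A, a subunit of the NAD-linked isocitrate dehydrogenase, was higher at 13.8 ± 1.37 CPM in number 3 and 6.40 ± 1.79 CPM in numbers 1 and 2 (adjusted p = 0.0148). D2HGDH, which clears the TET inhibitor 2-hydroxyglutarate, was lower at 9.15 ± 0.2996 CPM in number 3 and 15.6 ± 3.62 CPM in numbers 1 and 2 (adjusted p = 0.0235).

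Repair genes that follow TDG had no call, nor had the list of methyl-CpG readers with their relatives and partners. Of 13 tested genes for base excision and repair, edgeR called 0 (median log2 fold change -0.08), with 4 at an unadjusted p under 0.05 and 1 called lower by DESeq2 and by limma voom. NEIL2, a glycosylase that assists TDG, was at 12.6 ± 0.832 CPM in number 3 and 20.4 ± 5.91 CPM in numbers 1 and 2 (adjusted p = 0.0526). Of 11 genes listed as methyl-CpG readers, relatives or partners, edgeR called 0 (median -0.05). Of these, 3 had an unadjusted p under 0.05 and 1 was called lower by DESeq2 and by limma voom. MBD5 came closest, at 12.5 ± 1.66 CPM in number 3 and 17.7 ± 3.43 CPM in numbers 1 and 2 (adjusted p = 0.0591).

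Methyl donor supply, the folate and methionine cycles that make S-adenosylmethionine for the methyltransferases, had 3 genes higher and 1 lower of 17, with a median of 0.28, beside 17.9% called over all genes. With 1 library left out, 1 to 4 were higher and 1 lower. MTHFD2, a mitochondrial folate enzyme, averaged 109 ± 11.1 CPM in number 3 and 53.6 ± 7.53 CPM in numbers 1 and 2 (edgeR adjusted p = 0.00139). MTHFD1, its cytosolic counterpart, averaged 124 ± 8.30 CPM in number 3 and 83.8 ± 13.1 CPM in numbers 1 and 2 (adjusted p = 0.0109), and MAT2B, a regulatory subunit of the S-adenosylmethionine synthase, 58.9 ± 1.24 CPM in number 3 and 44.9 ± 2.50 CPM in numbers 1 and 2 (adjusted p = 0.0314). GLDC, of the glycine cleavage system, averaged 19.2 ± 0.906 CPM in number 3 and 32.9 ± 4.77 CPM in numbers 1 and 2 (adjusted p = 0.00264).

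Germline genes that promoter methylation keeps silent in somatic cells were mostly at or near 0. Of 16 such genes, 6 were tested and 5 had 3 counts or fewer in every library, and the whole list summed to at most 11.3 CPM in number 3 and 20.7 CPM in numbers 1 and 2. Of the 6 tested genes, 1 was lower and 0 higher in number 3, beside 17.9% called over all genes. Point estimates were above 0 for 4 and below 0 for 2, with a median of 0.23. The called gene was DAZL, an RNA-binding protein of germ cells, at 4.10 ± 0.592 CPM in number 3 and 11.8 ± 1.44 CPM in numbers 1 and 2 (log2 fold change -1.52, edgeR adjusted p = 0.000522). DAZL alone gave 13.3 of the 20.7 CPM summed in flat 2. Between plate shapes, edgeR called 0 genes in every one of these lists, with at most 2 genes of a list at an unadjusted p under 0.05, and limma voom called 0 genes in all.

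The genes whose pattern was most like that of these enzymes were taken by Pearson r of log2 CPM over the 9 libraries, among 11953 tested genes averaging at least 5 CPM. The closest to DNMT3B were OSBPL11 (r = 0.998), NR3C1 (0.996), YME1L1 (0.994) and GCN1 (0.994). For TDG they were ABCE1 (0.993), ZNF85 (0.993), CCDC138 (0.984) and PUS7 (0.984). For DNMT3A they were RC3H1 (0.994), ATF7IP2 (0.991), PPP2R2B (0.984) and NCOA5 (0.984). For TET1 they were BRWD1 (0.973), MAP3K9 (0.973), YEATS2 (0.969) and RNF19A (0.968). Among the enzymes themselves, r was 0.92 between DNMT3B and DNMT1, 0.89 between DNMT3B and TDG, 0.86 between TET1 and TET2, and -0.51 between DNMT3A and TET1. These values describe 9 libraries that share depth, number and plate shape, and carry no test.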

How the data were processed

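The authors deposited whole-number raw counts by gene for all 9 libraries, and the submitters' processing notes name HISAT2, featureCounts and GRCh38. Tool versions, annotation release and strandedness of counting are unstated in those notes. Per the labels' protocols the libraries are strand-specific and poly(A)-selected. Of 62710 gene identifiers, 62639 had a symbol and 58274 were in GENCODE v29, the source of positions and transcript lengths. Promoter sequences are from RefSeq, and 8 of the 9 genes had a window.

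The genes and lists were chosen with earlier results of these data known. Tests were two-sided edgeR 4.0.16 quasi-likelihood tests under R 4.3.3, after filterByExpr and TMM, with robust dispersion. Benjamini-Hochberg adjustment ran over all 23075 tested genes in each of 7 comparisons. Each fit used all 9 libraries, by plate shape alone or by library number with plate shape as a term. SEs are the log2 fold change over the square root of F. CPM used TMM-scaled totals. Floors of 3 counts cover counting error only. No pair of libraries was counted as 1, since each differed beyond sampling noise. Each list is named through up to 4 tested genes with the smallest p by number and a mean of at least 1 CPM, beside the stage markers POU5F1, TDGF1, SOX2 and PAX6.

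Alternatives were RLE scaling, other filters, DESeq2 1.42.0, limma 3.58.1 voom, a lowess correction for transcript length, a replicate block, fewer libraries and leaving out each library. The code was tested on simulated counts. Deviations from the group mean of same-numbered libraries had r of 0.38, 0.02 and 0.34 between concave and flat for numbers 1, 2 and 3. They had r of 0.37, 0.40 and 0.62 between convex and flat and of 0.58, 0.29 and 0.61 between concave and convex. By a minimum of 0.1 the numbers pair convex with flat and concave with convex libraries but not concave with flat.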

Additional observations from a re-analysis of the deposited data

Results flagged for a closer look

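The difference between libraries numbered 3 and those numbered 1 and 2 was compared between plate shapes for the TET genes, after it was seen that their libraries moved in opposite directions in different shapes. The 5 values given first are those where number 3 was above both other libraries in one shape and below both in the other. For concave against flat, the difference of log2 differences was -1.46 ± 0.55 for TET1 (SE, edgeR adjusted p = 0.45), -1.45 ± 0.43 for TET2 (adjusted p = 0.442) and -1.17 ± 0.46 for TET3 (adjusted p = 0.452). For convex against flat it was -0.94 ± 0.42 for TET2 (edgeR adjusted p = 0.974). For concave against convex it was -0.75 ± 0.46 for TET3 (edgeR adjusted p = 1). The 4 remaining TET values were -0.65 ± 0.55 for TET1 and -0.43 ± 0.46 for TET3 between convex and flat, and -0.81 ± 0.55 for TET1 and -0.52 ± 0.42 for TET2 between the curved shapes. No value passed the adjusted threshold. The 3 values for concave against flat had an unadjusted p under 0.05 and the other 6 did not. Over all 23075 tested genes edgeR called 0 in each of the 3 interactions. Those at an unadjusted p under 0.05 numbered 2525 between concave and flat, 550 between convex and flat and 518 between the curved shapes, and no other tool was run on them. Each shape has 1 library numbered 3, so the values for number 3 rest on single libraries.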

How the results depend on the processing

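Between plate shapes, 0 of the 9 genes were called under every alternative run, and 0 genes in all except 1 by DESeq2 for convex against flat. Adding the library number as a replicate block changed no call, with a median over the 8 tested genes of 0.22 for concave and 0.33 for convex against flat. By number, without the plate shape term (no replicate block), 1 of the 9 genes, TDG, was called, and leaving out 1 library gave 0 to 2 of them and 1077 to 5575 genes. Genes called numbered 6414 with flat 2 left out and the length correction, both together chosen after seeing the data, and 3 of the 9 genes were then called, TDG and DNMT3B higher and TET2 lower. For number 2 against number 1 they numbered 1 (RLE), 108 (no filter), 154 (DESeq2), 2 (length correction), 25 (flat 2 left out with length correction) and 0 to 11 (leaving out 1 library). The F test among numbers called 4087 genes with no filter, 4465 with DESeq2, 4201 with the length correction, 5925 with flat 2 left out as well, and 352 (without convex 3) to 4999 (without flat 2). Of the 9 genes it called 2, 2, 2 and 4 in these settings and 0 to 3 leaving out 1 library.

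Signs turned only in values that were not called in the main edgeR fit. One of them, TET2 by number 3, was called lower in 2 of the alternatives. For DNMT3A, concave against flat was -0.17 with length correction, -0.17 with replicate block and length correction and -0.0020 in libraries 1 and 2 only (a choice made after seeing the data). Convex against flat was -0.20 and -0.19 under the first 2 of these, and concave against convex 0.026 and 0.020. TET2 for concave against convex was 0.019, 0.012 and 0.084 under the same 3. In libraries 1 and 2 only, concave against convex was 0.0016 for TET3 and 0.019 for TDG. For number 2 against number 1, DNMT1 was -0.0028 with limma voom, and DNMT3B was 0.12 and TET2 0.011 with flat 2 left out and the length correction. Leaving out 1 library gave, for concave against flat, -0.049 to 0.13 (DNMT3A), -0.11 to 0.52 (DNMT3B), -0.079 to 0.29 (UHRF1) and -0.013 to 0.39 (TDG), and for convex against flat -0.034 to 0.60 (DNMT3B). For concave against convex it gave -0.13 to 0.057 (DNMT3A), -0.22 to 0.067 (DNMT3B), -0.30 to 0.40 (TET1), -0.20 to 0.23 (TET2) and -0.18 to 0.11 (TDG). By number 3 it gave -0.49 to 0.22 (TET1) and -0.72 to 0.031 (TET2), and by number 2 against number 1 -0.15 to 0.28 (DNMT1), -0.30 to 0.15 (DNMT3B) and -0.54 to 0.026 (TET2). The cause was not tested. Depth limits only DNMT3L, at 2 to 6 counts per library. With 1 library left out of a group of 3, the spread is still pooled over all groups.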

Other observations

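The balance of the de novo enzymes and of writers to erasers was read within each library, per kb of transcript, as ratios with no test. DNMT3B over DNMT3A was 14.5 to 17.5 in libraries numbered 3 and 7.29 to 14.1 in libraries numbered 1 and 2. DNMT3B over DNMT1 was 4.50 to 4.82 in number 3 and 3.45 to 4.10 in numbers 1 and 2, and DNMT3B over TET1 was 29.1 to 36.7 in number 3 and 10.6 to 23.6 in numbers 1 and 2. These 3 ratios share DNMT3B, whose own level did not overlap between the sets, so they are not separate observations. Ratios of DNMT3A to the erasers did overlap. DNMT3A over TET1 was 1.66 to 2.53 in number 3, inside the 0.791 to 3.03 of numbers 1 and 2. The ranges of DNMT3A over TET3 and of TDG over DNMT3A overlapped as well. So did those of UHRF1 over DNMT1, UHRF1 over TDG and TET1 over TET3. TET3 over TET2 was 2.74 to 3.78 in number 3 and 1.82 to 2.15 in numbers 1 and 2. How many other gene pairs lack overlap in this way was not counted, so this cannot be called particular to the pair. DNMT3B over TDG was 10.4 to 10.9 in number 3, inside the 7.58 to 11.5 of numbers 1 and 2. TET1 over TET2 was 6.23 to 6.51 in number 3, likewise inside the 4.42 to 7.61 of the other libraries.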
